A study of Mus musculus with 7 samples.

Results

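Of the receptor chains through which B-lineage cells sense cytokines, 10 were followed in memory B cells (MBCs) and plasma cells (PCs). The 10 are Il21r, Il4ra, Il2rg, Il6ra, Il6st, Il10ra, Il9r, Il5ra, Il13ra1 and Ifngr1. They were chosen by name as a family, with earlier results of these data known, and are 10 of the 48795 genes in the table. All 10 were among the 11573 genes tested. The 7 bulk RNA libraries came from spleens of female wild type C57BL/6 mice aged 8 to 12 weeks, analyzed 10 days after intravenous injection of sheep red blood cells, a particulate antigen that elicits germinal centers. After B cell enrichment with CD43 magnetic beads, MBCs (3 libraries) were sorted as B220+, CD138-, IgD-, CD38+ and CD273+, and PCs (4 libraries) as B220 low, CD138+ and IgD-. The comparison asks which receptor transcripts separate these products of the B cell response. The labels do not say that the libraries came from separate animals, so p-values measure the spread between these samples. In bulk RNA, fewer cells of a type and less RNA per cell cannot be told apart.

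Type I cytokine receptors pair a ligand-binding chain with a shared signaling chain, and type II receptors bind interferons and the IL-10 family. The common gamma chain, Il2rg, serves the receptors for IL-2, IL-4, IL-7, IL-9, IL-15 and IL-21, and gp130, Il6st, serves IL-6 and its relatives. The chains have no enzyme of their own and signal through bound Janus kinases, which phosphorylate STAT factors. In B cells, IL-4 and IL-21 from follicular helper T cells act on growth, class switching and differentiation, and IL-6 supports antibody-secreting cells.

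Levels are scaled TPM, the deposited abundance per transcript length and library total divided by one factor per library, because immunoglobulin transcripts took 1.65 to 3.16% of TPM in MBCs and 49.4 to 55.9% in PCs. Transcripts of the mitochondrial genome took 19.7 to 33.5% in MBCs and 8.10 to 9.80% in PCs, and 11527 to 18061 and 14463 to 16768 genes were above 0; the part of these differences in the receptor results was not tested. At 1 TPM a transcript of 1 kb stood for an estimated 6.27 to 11.6 reads in MBCs and 9.38 to 16.4 reads in PCs. Il6st, Il13ra1 and the other chains can thus be read down to a floor of 3 reads, at 0.26 to 0.479 TPM in MBCs and 0.183 to 0.32 TPM in PCs. The sorted identity was visible in PCs, where 6 of 6 plasma cell markers were called higher (6.41% of all genes tested). Of the B cell markers, 7 of 11 were called lower (2.14% of all genes tested), while Cd79a, Cd38 and Pdcd1lg2 overlapped between the groups. MBC replicate 3 stood apart. Its Cd38 level was 6.77 against 130 and 186 in the other MBC libraries, and its Pdcd1lg2 level, the gene of CD273, was 2.59 against 43.3 and 24.4. Its level of Bcl6, a germinal center factor, was 105 against 26.7 and 15.6. Its germinal center and cycling markers summed to 1044 against 299 and 326, beside 341 to 449 in the PC libraries. By Pearson's r of log2(scaled TPM + 1) over the genes tested, it was closer to every PC library (0.700 to 0.777) than to the other MBC libraries (0.687 and 0.681). The MBC libraries were also less alike (r of 0.675 to 0.687) than the PC libraries (0.850 to 0.957). Each result is therefore also given without it where that changes the call. MBC replicate 2 held erythroid transcripts, with a summed marker level of 3214 against 3.41 and 50.8.

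The short stretch just before the start listed for the promoter is shown for the neighboring genes Il4ra and Il21r, which both fell in PCs. It is also shown for Il6st and Il13ra1, which both rose. Il4ra and Il21r lie in the same orientation on chromosome 7, with 23778 bases and 0 RefSeq genes between them. For Il21r the listed promoter start lies inside the RefSeq gene span, which begins at 125603252, so the stretch shown is within that span. The sequences are RefSeq promoters of GRCm38.p6, 120 bases each, 5′ to 3′ on the strand of the gene, with CpG dinucleotides in capitals; the display was chosen after the values were seen.
Il4ra, chr7:125552151-125552270 (+): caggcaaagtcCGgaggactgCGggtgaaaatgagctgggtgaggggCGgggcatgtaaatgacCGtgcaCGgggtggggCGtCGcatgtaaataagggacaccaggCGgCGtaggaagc
Il21r, chr7:125603309-125603428 (+): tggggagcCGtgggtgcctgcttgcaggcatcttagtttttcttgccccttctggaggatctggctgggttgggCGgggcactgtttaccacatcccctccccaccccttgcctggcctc
Il6st, chr13:112463950-112464069 (+): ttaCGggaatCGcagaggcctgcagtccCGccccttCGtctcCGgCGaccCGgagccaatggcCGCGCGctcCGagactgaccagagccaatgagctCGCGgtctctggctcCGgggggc
Il13ra1, chrX:36111988-36112107 (+): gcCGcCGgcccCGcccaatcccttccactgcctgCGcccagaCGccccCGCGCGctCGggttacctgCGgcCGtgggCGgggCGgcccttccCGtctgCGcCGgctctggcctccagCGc
Over the whole 300-base window, from 250 bases before to 50 after the listed start, Il6st held 33 CpG, Il13ra1 28, Il4ra 25 and Il21r 7. The median was 7 in 32851 promoters. Ifngr1, the other chain that fell, held 14. The counts of the 2 called risers were above those of the 3 called fallers, a description of 5 genes examined after their values were seen. Of the chains not called, Il6ra held 25, as many as Il4ra, and Il9r held 5, Il5ra 4 and Il2rg 3. A STAT motif, TTCNNNGAA, which reads the same on both strands, was present in 0 of the 9 member promoters in the table and in 8.30% of all promoters.

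Of the 10 chains, 5 were called (adjusted p under 0.05 in limma and a log2 fold change of 1 or more in size), with 2 higher and 3 lower in PCs. Across all genes tested 8.55% were called, 6.41% higher and 2.14% lower. Since the chains were chosen with earlier results of these data known, their share beside that of all genes is a description only. The groups did not overlap for 5 of the 10 chains and for 21.7% of all genes tested. The median log2 fold change, PC minus MBC, was -0.57 over the 10 chains and 0.14 over all genes tested. Without MBC replicate 3 the chains gave 2 higher and 4 lower calls, with 21.7% of all genes called. 

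**Figure D1:**
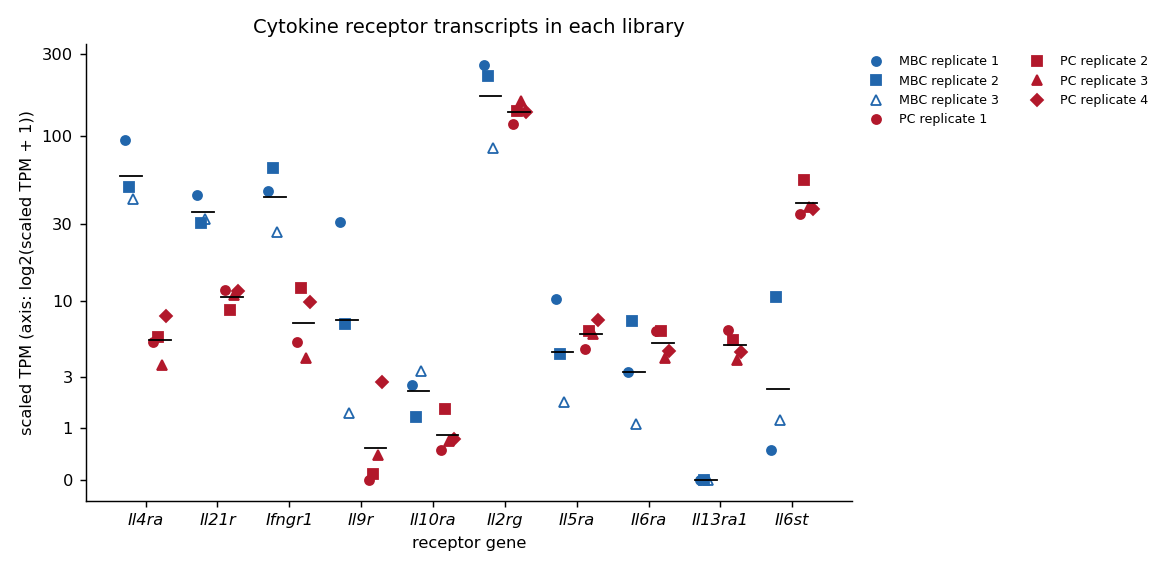
Scaled TPM of the 10 receptor chains (y axis, spaced as log2(scaled TPM + 1)) in each library, with MBCs in blue and PCs in red; bars mark the group mean on the log2 scale and the open triangle is MBC replicate 3. Il4ra, Il21r and Ifngr1 were higher in every MBC library than in any PC library, and Il13ra1 and Il6st were lower in every MBC library.

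The chains that bind the T cell cytokines IL-4 and IL-21 fell in PCs. Il4ra, the chain that binds IL-4 and is shared with the IL-13 receptor, was at 94.0, 49.9 and 42.1 scaled TPM in the MBC libraries (replicates 1 to 3, as below) and at 5.33, 5.77, 3.70 and 8.06 in the PC libraries (replicates 1 to 4). Every MBC library was above every PC library. The mean was 10.8-fold higher in MBCs, and the log2 fold change was -3.18 (SE 0.44, adjusted p = 0.00192 in limma). It passed the threshold under 16 of 16 alternative settings, between -4.41 and -2.84. An antisense gene, Gm44876, overlaps Il4ra on the other strand and was listed at 162 TPM in MBC replicate 1, at 0.99 in PC replicate 1 and at 0 elsewhere. Whether the counting used strand is not stated, so reads of the pair may be exchanged in MBC replicate 1.

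Il21r, the IL-21 binding chain, was at 44.5, 30.6 and 32.1 scaled TPM in MBCs and at 11.7, 8.74, 10.9 and 11.7 in PCs. The groups did not overlap. Il21r had the fourth highest mean of the 10 chains in MBCs and the third highest in PCs, where its range overlapped that of Ifngr1. The log2 fold change was -1.63 (SE 0.37, adjusted p = 0.0237 in limma). The call was lost when single libraries were left out: adjusted p was 0.0622 without MBC replicate 1 and between 0.0516 and 0.10 without any one PC library, with log2 fold changes from -1.67 to -1.47.

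Ifngr1, the ligand-binding chain for interferon gamma, was at 47.3, 64.7 and 26.9 scaled TPM in MBCs and at 5.38, 12.1, 4.12 and 9.84 in PCs. All MBC libraries were above all PC libraries, by 5.90-fold in the mean. The log2 fold change was -2.43 (SE 0.50, adjusted p = 0.0152 in limma). Its partner Ifngr2 was at 58.0, 13.0 and 7.76 in MBCs and 13.0, 3.09, 5.39 and 4.68 in PCs, with overlapping groups, and differed by -1.52 on the log2 scale (SE 0.72, adjusted p = 0.231 in limma).

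Il9r, the IL-9 binding chain, was at 30.9, 7.14 and 1.44 scaled TPM in MBCs and at 0, 0.0892, 0.406 and 2.73 in PCs. MBC replicate 3 lay below PC replicate 4, so the groups overlapped, and with all libraries the log2 fold change of -2.48 (SE 0.86) had an adjusted p of 0.116 in limma. Without MBC replicate 3 it was -3.38 with an adjusted p of 0.0213, and it was called, whereas without MBC replicate 1 it was -1.53 with an adjusted p of 0.274.

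The signaling chain gp130 and the IL-13 chain moved the other way. Il6st was at 0.505, 10.7 and 1.22 scaled TPM in MBCs and at 34.5, 54.7, 37.9 and 36.9 in PCs. The groups did not overlap, although MBC replicate 2 was far above the other MBC libraries. The log2 fold change was 3.61 (SE 0.67, adjusted p = 0.00932 in limma), and 15 of 16 alternatives kept it under 0.05, the exception being the title prefix that holds most libraries. Il6ra, which binds IL-6 before gp130 joins, was at 3.24, 7.47 and 1.13 in MBCs and at 6.40, 6.36, 4.13 and 4.64 in PCs, a difference of 0.57 on the log2 scale (SE 0.58, adjusted p = 0.594 in limma). The groups overlapped for Il6ra.

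Il13ra1, which pairs with Il4ra to form the receptor for IL-13, was listed at 0 in all 3 MBC libraries and at 6.50, 5.57, 4.01 and 4.54 scaled TPM in the PCs. It was at least 17.6-fold higher in PCs against the highest MBC floor of 3 reads per library. The log2 fold change was 2.60 (SE 0.44, adjusted p = 0.00525 in limma), a value that depends on the added 1. Eosinophil, basophil and mast cell markers, cells that carry several of these receptors, summed to 0.112 to 5.95 in MBCs and 2.38 to 5.17 in PCs. Epx, Siglecf, Mcpt8 and Fcer1a were at 0 in all 7 libraries. Kit, most of the PC sum, was at 2.25, 0.162 and 0.078 in MBCs and 3.60, 3.31, 5.17 and 2.38 in PCs, without overlap. Ccr3 was at 3.70 in MBC replicate 1. The myeloid markers summed to 5.73 to 40.2 in MBCs and 23.2 to 31.0 in PCs, and of these Cd68 was higher in PCs without overlap. The part of such cells in the Il13ra1 result was not tested.

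Il2rg, the common gamma chain, was the most abundant chain in both groups, at 261, 224 and 84.7 scaled TPM in MBCs and at 118, 140, 159 and 138 in PCs. The PC values lay inside the MBC range. The log2 fold change was -0.30 (SE 0.41, adjusted p = 0.702 in limma), and the sign depended on one library: without MBC replicate 1 it was 0.0039. On TPM as deposited, where all genes shift by a median of -0.91, it was -1.62 with an adjusted p of 0.0153.

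Il10ra, the IL-10 binding chain, was low in both groups, at 2.59, 1.31 and 3.30 scaled TPM in MBCs and 0.503, 1.58, 0.689 and 0.725 in PCs. At most 15 to 52 estimated reads stood behind the PC values. The groups overlapped, and the log2 fold change of -0.85 (SE 0.46) had an adjusted p of 0.293 in limma. Il5ra, which binds IL-5, a growth factor for antibody-secreting cells and eosinophils, was at 10.4, 4.43 and 1.85 in MBCs and at 4.77, 6.36, 6.08 and 7.57 in PCs. The groups overlapped, its log2 fold change was 0.35 (SE 0.57, adjusted p = 0.758 in limma), and the sign reversed without MBC replicate 3.

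Sample titles carry codes with 1 of 2 prefixes, whose meaning the labels do not give. Each MBC library shares its full code with a PC library, and the main fit does not use this. With the code as a block, Il4ra (adjusted p = 0.0164 in limma) and Il6st (0.0268) were called. Il21r, Ifngr1 and Il13ra1 were then not called. Within the more frequent prefix (2 MBC and 3 PC libraries) the log2 fold changes were -3.57 for Il4ra (adjusted p = 0.00909), -2.90 for Ifngr1 (0.0246), -3.81 for Il9r (0.0271) and 2.65 for Il13ra1 (0.0343), all past the threshold in limma. Il21r (-1.74, adjusted p = 0.0524) and Il6st (3.34, adjusted p = 0.0534) kept their direction and missed it. The other prefix held 1 library of each group and gives no test.

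**Figure D2:**
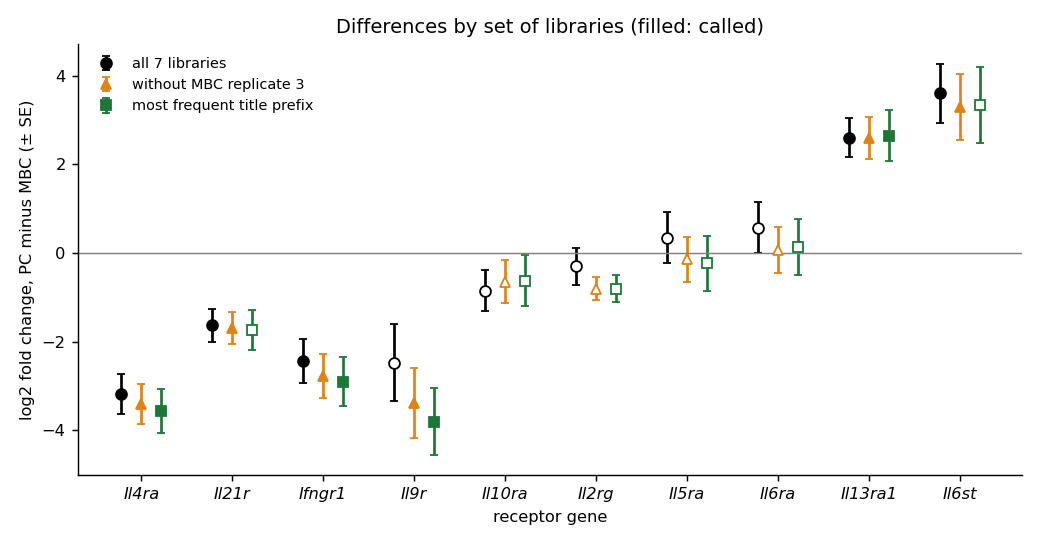
Log2 fold change, PC minus MBC, of each receptor chain (y axis, bars ± SE) with all 7 libraries, without MBC replicate 3, and within the libraries that share the most frequent title prefix; filled symbols were called. Il4ra, Ifngr1 and Il13ra1 were filled in all 3 sets, Il9r was filled in the sets without MBC replicate 3, and Il21r and Il6st were open in the prefix set.

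Ordered by mean level, which TPM allows since it is per length, MBCs ran Il2rg, Il4ra, Ifngr1, Il21r, Il9r, Il5ra, Il6st, Il6ra, Il10ra and Il13ra1. In MBCs only the last step, Il10ra above Il13ra1, was free of overlap between neighbors. In PCs the order was Il2rg, Il6st, Il21r, Ifngr1, Il5ra, Il4ra, Il6ra, Il13ra1, Il10ra and Il9r, and the steps from Il2rg to Il6st, from Il6st to Il21r and from Il13ra1 to Il10ra were free of overlap. Il4ra stood second in MBCs, with a mean of 62.0, and sixth in PCs, with a mean of 5.72, while Il6st went from seventh (4.13) to second (41.0).

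The balance of chains within a receptor was compared as the share of one chain in the summed TPM of a pair, which does not depend on scaling between libraries. Il4ra made up 26.5, 18.3 and 33.2% of Il4ra plus Il2rg in MBCs and 4.33, 3.94, 2.27 and 5.52% in PCs. Il21r made up 18.0% ± 8.28 (SD, n = 3) of Il21r plus Il2rg for the MBC libraries, against 7.28% ± 1.44 (SD, n = 4) for the PC libraries. The MBC shares were above all PC shares in both pairs, but the mean difference for Il21r, -10.7 points, was -6.01 without MBC replicate 3, whose share of 27.5% stood above the 14.6 and 12.0% of the other MBC libraries.

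Il13ra1 held 0% of Il13ra1 plus Il4ra in all MBC libraries and 54.9, 49.1, 52.0 and 36.1% in PCs. The mean share of Il6ra went from 58.5% ± 24.5 (SD, n = 3) of Il6ra plus Il6st among MBCs to 11.8% ± 2.65 (SD, n = 4) in PCs. Shares of Il5ra with Csf2rb, the beta chain it signals through, were 78.5% ± 14.6 (SD, n = 3) and 23.9% ± 7.61 (SD, n = 4). These pairs also had no overlap between groups. With Csf2rb2, a near-identical copy of Csf2rb, counted with it, a choice made after the values were seen, the Il5ra share was 84.6, 20.3 and 57.8% in MBCs and 18.4, 21.6, 19.5 and 34.3% in PCs, and the groups overlapped.

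Il10ra with its partner Il10rb gave 40.2% ± 16.7 (SD, n = 3) for the MBC libraries, against 7.93% ± 1.78 (SD, n = 4) for the PC libraries, again without overlap. Shares of Il9r in Il9r plus Il2rg overlapped, with a mean difference of -4.55 points that was -1.82 without MBC replicate 1, at 5.12% ± 4.79 (SD, n = 3) and 0.565% ± 0.925 (SD, n = 4). Shares of Ifngr1 in Ifngr1 plus Ifngr2 overlapped as well, with a mean difference of -13.6 points that ranged from -25.5 to -5.05 when 1 library was left out, at 68.6% ± 20.7 (SD, n = 3) and 55.0% ± 22.9 (SD, n = 4).

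With 3 against 4 libraries the exact two-sided permutation test over 35 assignments, with the smaller tail doubled, cannot give a p below 0.0571. The 6 pairs without overlap reached that smallest value, with an adjusted p of 0.0762 over the 8 pairs, so 0 of 8 shares passed. A second form of the exact permutation test, on the size of the difference, was added after these p-values had been seen. Its smallest p is 0.0286, and by it the same 6 shares had an adjusted p of 0.0381, so whether they pass depends on that choice.

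**Figure D3:**
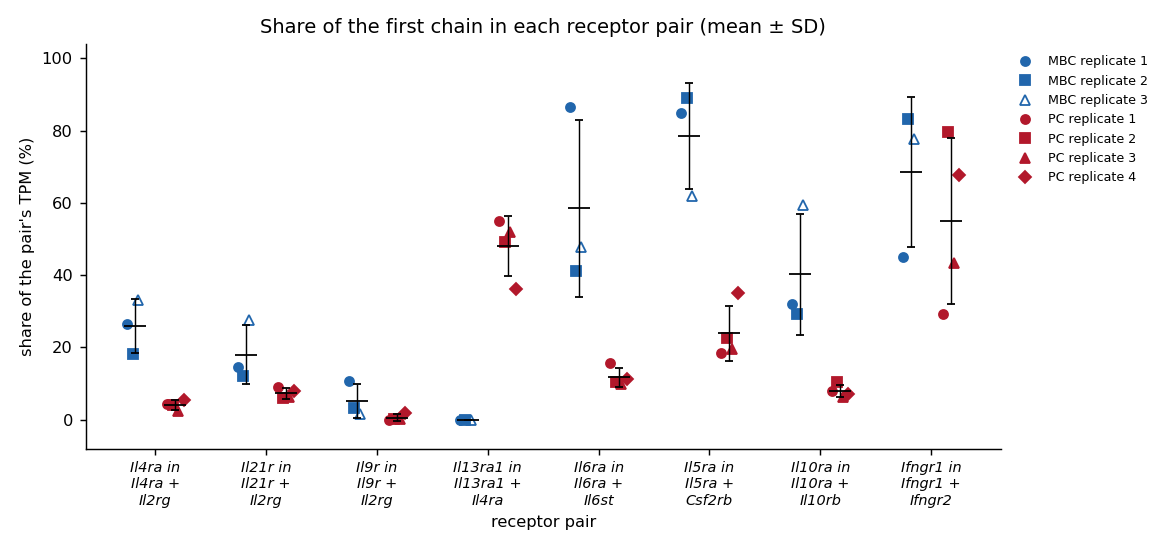
Share (%) of the first chain in the summed TPM of each receptor pair, by library, with MBCs in blue and PCs in red; black marks show the mean ± SD of 3 MBC and 4 PC libraries. Il13ra1 was at 0% in all MBC libraries and at 36.1 to 54.9% in PCs, and the Il9r and Ifngr1 pairs overlapped.

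Of 46 other cytokine receptor chains, 18 were tested, with 5 higher in PCs and 0 lower, and a median log2 fold change of 0.47. Over all genes tested 6.41% were called higher and 2.14% lower, and the median was 0.14. By family, 4 of 11 type I chains tested, 1 of 4 type II chains and 0 of 3 chains of the IL-1 and IL-17 receptor families were called. Without MBC replicate 3 the calls were 5 higher and 3 lower, the latter being Il15ra, Lifr and Il17ra, with 21.7% of all genes called.

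Prlr, the prolactin receptor, was at 0 in all MBC libraries and at 21.4, 16.0, 13.7 and 17.5 scaled TPM in PCs, at least 58.7-fold higher against the MBC floor (log2 fold change 4.17, SE 0.46, adjusted p = 0.000467 in limma). Csf2rb, the beta chain shared by the IL-3, IL-5 and GM-CSF receptors, was at 1.86, 0.553 and 1.14 in MBCs and 21.2, 21.7, 24.8 and 14.0 in PCs (log2 fold change 3.31, adjusted p = 0.00227 in limma). Neither gene overlapped between groups. The split of reads between Csf2rb and its near-identical neighbor Csf2rb2 is uncertain, and Csf2rb2 was at 16.9 in MBC replicate 2. Their sum was 1.89, 17.4 and 1.35 scaled TPM in MBCs and 21.2, 23.1, 25.1 and 14.5 in PCs, so the summed levels overlapped.

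Ifnar2, a chain of the type I interferon receptor, rose with a log2 fold change of 3.01 (adjusted p = 0.0136 in limma). It was under 0.05 in 12 of 16 alternatives, but not within the more frequent title prefix (adjusted p = 0.0556 in limma). Its partner Ifnar1 was at -0.04 (adjusted p = 0.969 in limma). Il2rb, shared by the IL-2 and IL-15 receptors, rose by 2.94 (adjusted p = 0.0249 in limma, under 0.05 in 7 of 16 alternatives) and Il7r, the IL-7 binding chain, by 2.56 (adjusted p = 0.00796 in limma) on the log2 scale. All T cell markers but Lck had a higher mean in PCs, and 2 of the 3 tested (Cd3e and Trac) were called higher. The means were 0.219 in MBCs and 10.6 in PCs for Cd3e, and 0.078 and 12.0 for Trac. Lck was at -0.85 on the log2 scale (adjusted p = 0.669 in limma), with 14.3 and 23.0 in MBC replicates 1 and 3. The 8 markers summed to 0.519 to 24.3 in MBCs and 15.5 to 41.0 in PCs. Lck made up most of the sums of MBC replicates 1 and 3, and 0 of the 8 were at 0 in all libraries. The 5 NK and innate lymphoid markers summed to 0 to 0.0341 and 1.90 to 4.60. The part of T, NK and innate lymphoid cells in the Il2rb, Il7r and other receptor results was not tested.

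**Figure D4:**
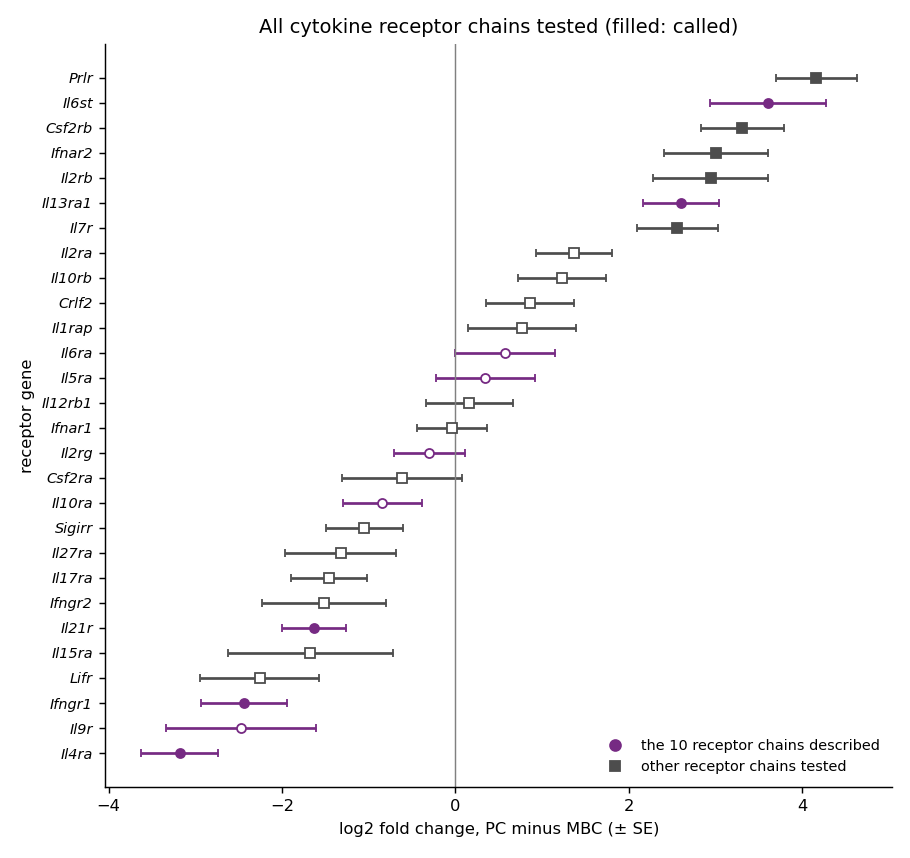
Log2 fold change, PC minus MBC (x axis, bars ± SE), of the 28 cytokine receptor chains tested, in order; circles are the 10 chains described, squares the 18 others, and filled symbols were called. The calls higher in PCs run from Il7r at 2.56 to Prlr at 4.17, and the calls lower are Il21r, Ifngr1 and Il4ra.

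Downstream of the receptors, Jak1, the kinase bound to Il4ra, Ifngr1 and gp130, was at 101, 126 and 67.6 scaled TPM in MBCs and at 29.5, 28.6, 31.0 and 31.2 in PCs. It fell without overlap, by -1.64 on the log2 scale (SE 0.33, adjusted p = 0.0148 in limma), and passed under 12 of 16 alternatives. Jak2, Jak3 and Tyk2 were at -0.71, -1.03 and 0.36 and were not called. Of the 7 STAT factors 0 were called with all libraries, beside 8.55% of all genes tested. Stat6, which IL-4 activates, had a log2 fold change of -2.15 (adjusted p = 0.057 in limma) and was called without MBC replicate 3, at -2.87 (adjusted p = 0.0037 in limma).

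The genes most alike to each called chain over the 7 libraries, by Pearson's r of log2(scaled TPM + 1), mostly repeat the separation of the groups and are given as a description. For Il4ra they were Cblb (r = 0.995), Invs and Ncoa3, and for Il21r Crybg1 (r = 0.996), Bid and Lrch1. For Ifngr1 they were H2-Ab1 (r = 0.990), a class II histocompatibility gene, Wdfy4 and Ackr2. For Il6st they were Mib1 (r = 0.998), Igkv2-137 and Arf4, and for Il13ra1 Sec11c (r = 0.997), a signal peptidase subunit, Ighv1-20 and Prlr.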

How the data were processed

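The authors deposited TPM (read counts per transcript length, scaled to one total per library, rounded to 2 decimals) for 48795 Ensembl genes in 7 libraries. The submitters' processing notes name RSEM 1.3.0, STAR 2.5.2a, DESeq2 1.18.1 and GRCm38, without roles; the annotation release is not given in the sources used here. Symbols came from GENCODE M21 (48349 matched).

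TPM was divided by each library's median ratio to the geometric mean over 9305 genes above 0 in all libraries. The 11573 genes that reached 1 TPM in 3 or more libraries entered limma 3.58.1 (R 4.3.3; lmFit, eBayes with trend, no covariates) as log2(scaled TPM + 1). A fold change on this scale understates the change of low genes. Calls needed a Benjamini-Hochberg adjusted p under 0.05 and a log2 fold change of 1 or more in size. Pair shares used TPM as deposited and scipy 1.17.1. The limma step was tested on simulated data.

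TPM holds no read totals; depth was estimated, after the data were seen, from low values of single-transcript genes, of which 75.7 to 83.6% lay within 0.15 of a whole read (30.0% by coincidence). Floors cover counting error only.

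The members, lists and pairs were chosen with earlier results of these data known. All 10 members were named, up to 6 called genes per direction of each receptor list, the partner chains, the Janus kinases, called STAT factors and the 3 genes most alike to each called member; Stat6 was named after its values were seen. Alternatives were other scalings, pseudocount and filter, title prefix, blocks, no variance trend and each library left out. No protein sequences were used here.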

Additional observations from a re-analysis of the deposited data

Results flagged for a closer look

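Among the 18 PC results examined (10 levels and 8 shares), 3 had 1 library far from the other 3, where chance flags about 1 group in 20, or 0.9 here. Il6st was at 54.7 scaled TPM in PC replicate 2, above the other PC libraries. Il9r was at 2.73 scaled TPM in PC replicate 4, and its share of Il9r plus Il2rg there was 1.94%, the highest PC values of each. This level and this share rest on the same Il9r value. The 18 results are thus not separate, and the 0.9 is only a guide. Groups of 3 were not examined.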

How the results depend on the processing

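Of 160 combinations of a member and an alternative, 137 kept direction and side of the threshold, 13 lost the threshold, 5 gained it and 5 changed sign. Among the 10 chains, calls higher in PCs numbered 2, and 1 within the title prefix. Calls lower numbered 3, and 6 on TPM as deposited, where the median of all genes moved to -0.91. Other chains called higher numbered 5, and 3 on TPM as deposited, with all genes above 0 and within the title prefix. Other chains called lower numbered 0, and 6 on TPM as deposited, 2 with immunoglobulin genes removed and 2 within the title prefix. Leaving out 1 library gave 3 to 5 higher (3 without PC replicate 3) and 0 to 3 lower (3 without MBC replicate 3).

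Same-numbered samples did not deviate together (r = 0.11, -0.04 and -0.08). Samples with one title code gave mixed values (r = 0.11, -0.0044 and 0.22), the last being the highest of any MBC and PC pair. The main fit treated neither as paired, and whether a code marks a shared animal is not stated. The replicate block gave 1 member higher and 1 lower, as did the title code block, and 3 other chains higher under each block. Under the replicate and title code blocks the calls lost were Il21r (adjusted p = 0.176 and 0.157), Il13ra1 (0.065 and 0.0629) and Ifngr1 (0.050 and 0.0516). Over all genes the replicate block made 390 higher and 60 lower calls, beside 742 and 248.

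Changes of sign were Il6ra (-0.46) and Il5ra (-0.75) on TPM as deposited, Il5ra within the prefix (-0.23) and without MBC replicate 3 (-0.14), and Il2rg without MBC replicate 1 (0.0039); none of these was called. Leaving out 1 library gave -0.14 to 0.86 for Il5ra and -0.80 to 0.0039 for Il2rg. The Il5ra share difference within the prefix was -66.6 points, and -30.8 with Csf2rb2 counted with Csf2rb (adjusted p = 0.196 over the 8 pairs in the exact permutation test), which leaves 5 pairs without overlap; this was chosen after seeing the data. Under the permutation test on the size of the difference, chosen after seeing the data, adjusted p went from 0.0762 to 0.0381 for the shares of Il4ra (-21.9 points), Il21r (-10.7), Il13ra1 (48.0), Il6ra (-46.8), Il5ra (-54.6) and Il10ra (-32.3). The causes were not tested. Depth limits Il10ra and Il9r in PCs.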
